A study of Homo sapiens with 60 samples.

Results

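The 6 genes EGFR, ERBB2, ERBB3, ERBB4, ERRFI1 and LRIG1 encode the receptors of the ERBB family and a pair of proteins that restrain them. They were chosen by symbol from the 19712 genes of the deposited tables, and all 6 were present. RNA was sequenced from 60 libraries of 4 established non-small cell lung adenocarcinoma lines, PC9, HCC827, H1975 (NCI-H1975) and HCC2935, all of which carry mutant EGFR. In each line, 5 arms were made with 3 biological replicates each, which gives 20 groups. The drug was osimertinib, a covalent inhibitor of mutant EGFR, at 500 nM in every treated arm.

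In the DMSO arm, parental cells received the solvent for 24 h, and in the acute arm they received osimertinib for 24 h. Both of these cultures had first been kept without drug for 21 days. The DTP arm held the drug-tolerant persister cells that were left after 21 days of osimertinib. The short washout arm held persisters kept for 24 h in medium without drug. The long washout arm held persisters kept without drug until growth was again exponential, for 7 days in PC9, 4 days in HCC827, 3 days in H1975 and 10 days in HCC2935, so that its length differed by line. Each line was grown as a monolayer, and the p-values below describe the spread between cultures of 1 line. Since these are bulk samples, fewer cells of a type and less RNA per cell cannot be told apart.

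EGFR, ERBB2, ERBB3 and ERBB4 are receptor tyrosine kinases that act as dimers. EGFR binds EGF and related ligands. ERBB2 has no known ligand and is the preferred partner of the other receptors. ERBB3 and ERBB4 bind neuregulins, and ERBB3, whose own kinase activity is weak, is known for recruiting PI3K. ERRFI1, also called MIG6, binds the active kinase domain of the receptors and blocks it, and its gene is a known target of ERK signalling. LRIG1 is a membrane protein that binds ERBB receptors and promotes their degradation. Raised ERBB2 and ERBB3 are known in lung adenocarcinoma as routes that can bypass a blocked EGFR.

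A library held between 17.7 and 49.1 M estimated counts, with 17.7 to 25.1 M in HCC827 and 18.6 to 25.6 M in HCC2935 against 34.7 to 47.1 M in PC9 and 38.7 to 49.1 M in H1975. The 6 epithelial markers EPCAM, CDH1, KRT7, KRT8, KRT18 and KRT19 each had a median of at least 1 TPM (a level scaled for transcript length and library size) in every line. CD3E was under 0.1 TPM at the median in all 4 lines, as was PTPRC in PC9, HCC827 and HCC2935, while CD68 was at 1 TPM or more in all 4. Of the lung markers, NAPSA was at 1 TPM or more in all 4 lines and SFTPC under 0.1 TPM in PC9, HCC827 and HCC2935, and NKX2-1 was not analysed here. The 8 ERK-induced genes DUSP4, DUSP6, SPRY2, SPRY4, ETV4, ETV5, EGR1 and FOSL1, which report on the pathway below EGFR, served as a check of the drug: 7, 6, 6 and 8 of them were lower under acute osimertinib in PC9, HCC827, H1975 and HCC2935. These are 87.5%, 75%, 75% and 100% of the list in the same order. Over all genes tested, 68.5%, 42.3%, 44.9% and 47.1% changed in either direction (edgeR adjusted p under 0.05). In H1975, DMSO replicate 2 and acute replicate 1 stood apart from their groups, with EPCAM at 123 TPM against 272 and 241 TPM, and at 67.0 TPM against 135 and 169 TPM. The H1975 libraries labelled long washout held 15.4 to 24.5 TPM of MKI67, a marker of dividing cells, and those labelled short washout 33.1 to 49.2 TPM, so results for these arms of H1975 are given by label. In PC9, long washout replicate 3 had 29.3 TPM of MKI67 against 41.2 and 42.5 TPM in the others.

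In GRCh38, with the GENCODE 29 annotation, EGFR lies at chr7:55019021-55211628 on the plus strand, ERBB2 at chr17:39687914-39730426 on the plus strand and ERBB3 at chr12:56076799-56103505 on the plus strand. ERBB4 lies at chr2:211375717-212538841 on the minus strand, ERRFI1 at chr1:8004404-8026308 on the minus strand and LRIG1 at chr3:66378797-66501263 on the minus strand. Genes on the opposite strand overlap EGFR (EGFR-AS1), ERBB2 (PGAP3 and MIEN1), ERBB4 (RNA5SP119, MTND2P23 and MTCO1P46), ERRFI1 (AL034417.4) and LRIG1 (SLC25A26), and as no source says whether counting used the strand, reads of these overlaps cannot be told apart. On the same strand, MIR4728 overlaps ERBB2, AC034102.2 overlaps ERBB3 and MIR548F2 overlaps ERBB4, and the strand cannot separate their reads.

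The 250 bases before the start site are shown for ERBB2 and ERRFI1, the receptor that was higher and the inhibitor that was lower than under DMSO in all 4 lines after acute osimertinib. Both come from RefSeq promoters of GRCh38.p14 and are written 5′ to 3′ on the strand of the gene. Capitals mark letters that match an AP-1 motif (TGANTCA) or an ETS motif (CCGGAAG), and GTAAACA, a FOXO motif, was also searched, each on both strands. The ERBB2 stretch is chr17:39687844-39688093 on the plus strand, and the ERRFI1 stretch is chr1:8026310-8026559 on the minus strand.
ERBB2: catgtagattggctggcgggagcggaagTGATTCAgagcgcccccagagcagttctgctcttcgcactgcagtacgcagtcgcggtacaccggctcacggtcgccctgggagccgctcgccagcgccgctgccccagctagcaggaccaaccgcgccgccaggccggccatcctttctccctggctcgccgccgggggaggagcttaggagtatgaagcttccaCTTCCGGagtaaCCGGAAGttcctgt
ERRFI1: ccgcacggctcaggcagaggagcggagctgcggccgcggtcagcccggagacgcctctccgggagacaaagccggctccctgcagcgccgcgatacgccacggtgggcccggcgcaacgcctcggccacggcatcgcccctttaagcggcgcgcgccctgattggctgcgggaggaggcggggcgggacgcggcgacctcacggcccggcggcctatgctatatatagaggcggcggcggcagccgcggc
In the ERBB2 window an AP-1 match began 222 bases before the start site, and ETS matches began 26 and 14 bases before it. The ERRFI1 window held none of the 3 motifs. Among all 35116 promoter windows of 300 bases in the table, 7.71% held the AP-1 letters, 10.3% the ETS letters and 3.42% the FOXO letters. The table held 9 promoters of 5 of the genes, and ERBB3 is named only. A match of letters is a description and was not tested for binding.

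Under DMSO the lines differed in which ERBB genes they expressed. EGFR was highest in HCC827, with 1205, 1398 and 1029 TPM in the 3 libraries, then in PC9 with 229.6, 222 and 249 TPM. HCC2935 held 98.9, 105 and 97.3 TPM and H1975 56.8, 61.7 and 60.9 TPM. These 4 groups did not overlap, and every pair of lines differed in EGFR, also between neighbours such as PC9 and HCC2935 (log2 difference 1.63 ± 0.10, edgeR adjusted p = 1.22e-08). The log2 differences are edgeR contrasts of TMM-normalized counts from 1 fit of the 12 DMSO libraries.

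ERBB2 was highest in HCC2935, with 133, 145 and 136 TPM. HCC827 followed with 58.3, 48.7 and 65.1 TPM, H1975 with 55.6, 39.5 and 47.0 TPM and PC9 with 40.7, 39.8 and 38.8 TPM. HCC2935 lay above the other lines in every library, while PC9 and H1975 did not pass the test against each other (log2 difference 0.018 ± 0.13, edgeR adjusted p = 0.917), and the difference turned its sign on the TPM scale. HCC827 against PC9 and against H1975 passed it, but not without replicate 3 of both lines (edgeR adjusted p = 0.262 and 0.207), and HCC827 against PC9 also not without replicate 1 (0.0756).

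ERBB3 gave fewer calls than ERBB2, with larger errors, and stood at 67.3, 69.0 and 70.3 TPM in HCC2935, 36.0, 33.8 and 44.5 TPM in HCC827, 24.8, 31.7 and 32.6 TPM in PC9 and 29.8, 9.13 and 26.8 TPM in H1975. The largest difference was that of H1975 minus HCC2935 (log2 difference -1.50 ± 0.31, edgeR adjusted p = 0.000832). No neighbours in this order passed the test, though HCC2935 and HCC827 did without replicate 2 (edgeR adjusted p = 0.0178) and PC9 and H1975 without replicate 1 (0.0435). Of the 6 pairs, 3 were called, among them HCC2935 against PC9, which was lost without replicate 1 or 3 (edgeR adjusted p = 0.156 and 0.107), and HCC827 against H1975, which was lost without replicate 3 (0.103). ERBB4 was close to absent: the DMSO libraries held estimated counts of 12.1, 8.04 and 7.01 in HCC2935, 0, 4.29 and 0 in PC9 and 0, 0 and 2.26 in H1975, and 0 in all 3 libraries of HCC827. HCC2935 had more ERBB4 than each other line by the test, and the difference from PC9 was lost without replicate 1 or 3 (edgeR adjusted p = 0.0913 and 0.0604). Only the HCC2935 counts brought ERBB4 past the count filter in this fit.

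The inhibitors did not follow 1 order. ERRFI1 was highest in HCC827, the line with the most EGFR, at 192, 255 and 168 TPM, and lowest in HCC2935, at 50.4, 52.8 and 60.7 TPM. PC9, with 78.0, 83.8 and 90.1 TPM, and H1975, with 94.5, 100.2 and 93.2 TPM, were not separated by the test (log2 difference 0.08 ± 0.12, edgeR adjusted p = 0.586), and their order on TPM was the opposite of that on counts. LRIG1 was highest in H1975, the line with the least EGFR, at 8.46, 13.7 and 9.24 TPM. It stood at 5.31, 5.33 and 4.41 TPM in HCC2935, 1.03, 0.668 and 0.873 TPM in PC9 and 0.69, 0.343 and 0.32 TPM in HCC827. All 6 pairs of lines differed in LRIG1, with PC9 against HCC827 lost without replicate 3 (edgeR adjusted p = 0.0886).

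Over the 6 genes and 6 pairs of lines, 28 of 36 differences were called, with an edgeR adjusted p under 0.05: 6 for EGFR, 5 for ERBB2, 3 for ERBB3, 3 for ERBB4, 5 for ERRFI1 and 6 for LRIG1. The 3 ERBB4 calls are the pairs with HCC2935, the higher group, and only its counts brought ERBB4 past the count filter. They therefore add nothing independent to the total. Between lines many genes differ, and the called share of all genes tested was 64% for PC9 against HCC827, 64.5% for PC9 against H1975, 69.1% for PC9 against HCC2935, 57.3% for HCC827 against H1975, 66.4% for HCC827 against HCC2935 and 67% for H1975 against HCC2935.

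**Figure D1:**
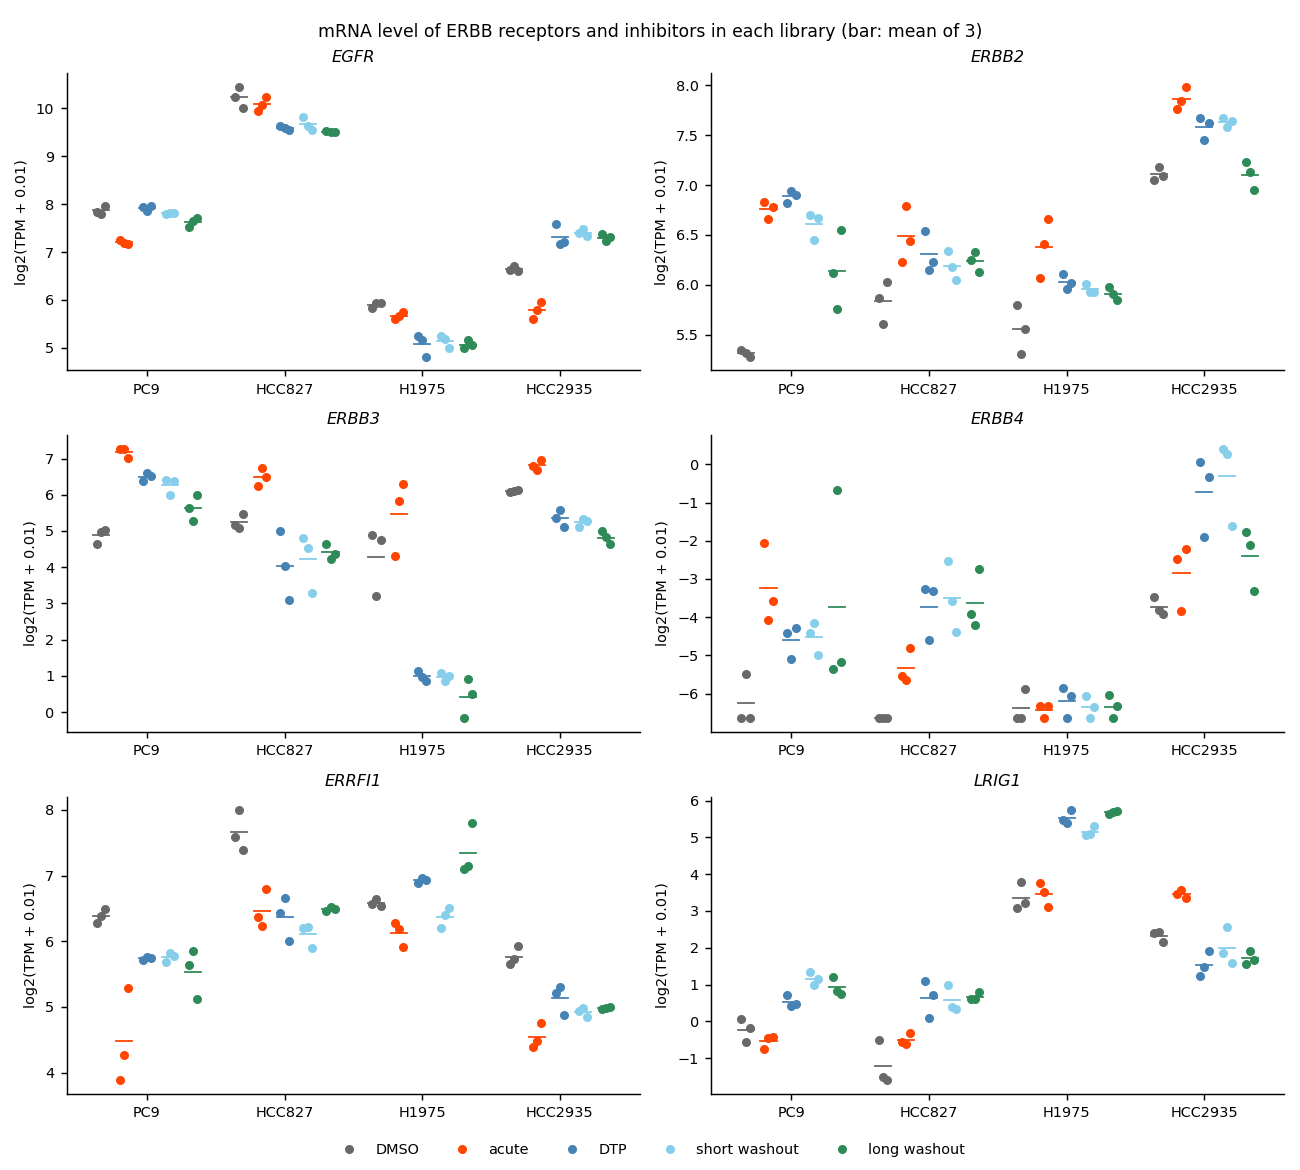
Level of each of the 6 genes in all 60 libraries, as log2(TPM + 0.01) on the vertical axis, by line and arm on the horizontal axis, with 1 point per library and a bar at the mean of 3. ERBB4 lies lowest throughout, ERBB3 in H1975 lies between 19.9 and 77.9 TPM in the acute arm and between 1.82 and 2.18 TPM in the DTP arm, and LRIG1 in H1975 lies above LRIG1 of the other lines in every arm but the acute one.

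The first comparison asked what 24 h of osimertinib did to its target and the relatives of that target. ERBB2 was higher and ERRFI1 lower than under DMSO in all 4 lines, EGFR was lower in 3 lines, and ERBB3 was higher in 3. Of the members that could be tested, 5 of 6 were called in PC9, where 68.5% of all genes were called, 3 of 5 in HCC827 (all genes 42.3%), 3 of 5 in H1975 (all genes 44.9%) and 5 of 6 in HCC2935 (all genes 47.1%). The PC9 calls include ERBB4, which only its osimertinib libraries brought past the count filter. A call in the same direction in all 4 lines was less frequent: 6.76% of the genes tested in every line were higher in all 4, as ERBB2 was, and 12.7% were lower in all 4, as ERRFI1 was. All fold changes are edgeR estimates on the log2 scale, from TMM-normalized counts of 3 libraries per arm, given ± SE.

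ERBB2 rose most in PC9, from 40.7, 39.8 and 38.8 TPM under DMSO to 113, 101 and 109.9 TPM (log2 fold change 1.45 ± 0.059, edgeR adjusted p = 2.99e-07), which is 2.72-fold. In H1975 it rose from 55.6, 39.5 and 47.0 to 67.0, 85.1 and 101 TPM (log2 fold change 0.81 ± 0.17, edgeR adjusted p = 0.00751). In HCC2935, the line with the most ERBB2, it rose from 133, 145 and 136 to 217, 229.6 and 254 TPM (log2 fold change 0.75 ± 0.081, edgeR adjusted p = 7.17e-05). The treated libraries lay above the DMSO libraries in all 4 lines. In HCC827 the rise was from 58.3, 48.7 and 65.1 to 75.0, 111 and 86.8 TPM (log2 fold change 0.59 ± 0.16, edgeR adjusted p = 0.0145), and this call was lost without acute replicate 2 (edgeR adjusted p = 0.0584). The size of the rise differed between the lines (interaction of line and arm, edgeR adjusted p = 0.00688).

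ERBB3, the neuregulin receptor, rose in 3 lines. In PC9 it rose 4.93-fold, from 24.8, 31.7 and 32.6 to 155, 155 and 128 TPM (log2 fold change 2.30 ± 0.13, edgeR adjusted p = 1.09e-06). In HCC827 it rose from 36.0, 33.8 and 44.5 to 75.3, 106 and 89.1 TPM (log2 fold change 1.17 ± 0.15, edgeR adjusted p = 0.000355). In HCC2935 it rose from 67.3, 69.0 and 70.3 to 110.5, 104 and 124 TPM (log2 fold change 0.70 ± 0.078, edgeR adjusted p = 8.06e-05). The groups did not overlap in these 3 lines. In H1975 the libraries held 29.8, 9.13 and 26.8 TPM under DMSO and 19.9, 57.0 and 77.9 TPM under the drug, so that they overlapped and the difference was not called (log2 fold change 1.19 ± 0.55, edgeR adjusted p = 0.117). The low library of each arm, DMSO replicate 2 and acute replicate 1, is the one that also had the least EPCAM and CDH1. Without acute replicate 1 the difference was called (edgeR log2 fold change 1.57, adjusted p = 0.0306), and without both libraries, a choice made after seeing the data, it was as well (edgeR log2 fold change 1.21, adjusted p = 0.00149). A difference of the ERBB3 effect between the lines was not called (edgeR adjusted p = 0.0606).

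EGFR itself, the target of the drug, fell in HCC2935 from 98.9, 105 and 97.3 to 48.6, 55.0 and 62.3 TPM (log2 fold change -0.87 ± 0.092, edgeR adjusted p = 5.98e-05). In PC9 it fell from 229.6, 222 and 249 to 152, 146 and 144 TPM (log2 fold change -0.66 ± 0.064, edgeR adjusted p = 1.97e-05). No treated library of these lines reached the lowest DMSO library. In H1975 the step was from 56.8, 61.7 and 60.9 to 48.8, 50.6 and 53.8 TPM (log2 fold change -0.24 ± 0.076, edgeR adjusted p = 0.0344), and that call was lost without acute replicate 1 or 2 or DMSO replicate 1, 2 or 3 (edgeR adjusted p 0.0504 to 0.123). HCC827, with 985, 1078 and 1205 TPM under the drug, overlapped its DMSO group of 1205, 1398 and 1029 TPM and was not called (log2 fold change -0.22 ± 0.11, edgeR adjusted p = 0.143), except without DMSO replicate 3 (edgeR adjusted p = 0.0352). The EGFR effect differed between the lines (interaction, edgeR adjusted p = 0.000788). ERBB4 stayed at very low counts. In PC9 the estimated counts were 0, 4.29 and 0 under DMSO and 65.5, 17.1 and 21.6 under osimertinib (called higher, edgeR adjusted p = 0.00277), a difference for which no fold is given since DMSO libraries were at 0. ERBB4 passed the count filter there through the osimertinib libraries, so its being tested already depended on a high level under the drug. In HCC2935 the counts were 12.1, 8.04 and 7.01 and 24.4, 7.29 and 26.0, and the difference was not called (edgeR adjusted p = 0.129). ERBB4 did not pass the count filter in HCC827 or H1975.

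ERRFI1, the kinase-binding inhibitor, fell in all 4 lines. It went from 78.0, 83.8 and 90.1 to 14.8, 19.3 and 38.9 TPM in PC9 (log2 fold change -1.79 ± 0.29, edgeR adjusted p = 0.000523), where acute replicate 3 lay well above the others of its arm. In HCC827 it went from 192, 255 and 168 to 82.4, 75.0 and 111 TPM (log2 fold change -1.27 ± 0.17, edgeR adjusted p = 0.000479). Both of these lines lost over 1 log2 unit, as did HCC2935, from 50.4, 52.8 and 60.7 to 20.9, 22.3 and 27.0 TPM (log2 fold change -1.23 ± 0.10, edgeR adjusted p = 1.55e-05). In H1975 the step was smaller, from 94.5, 100.2 and 93.2 to 77.9, 72.5 and 60.1 TPM (log2 fold change -0.46 ± 0.12, edgeR adjusted p = 0.0171). The groups did not overlap in any line, and the size of the fall differed between the lines (interaction, edgeR adjusted p = 0.0127). LRIG1, which promotes receptor degradation, rose in HCC2935 alone among the calls, from 5.31, 5.33 and 4.41 to 11.1, 11.8 and 10.2 TPM (log2 fold change 1.13 ± 0.15, edgeR adjusted p = 0.000209). In the other lines its treated libraries overlapped or lay near DMSO, with log2 fold changes of -0.33 in PC9, 0.58 in HCC827 and 0.089 in H1975, none of them called (edgeR adjusted p = 0.274, 0.278 and 0.776), and the H1975 sign turned without acute replicate 1 or DMSO replicate 1. The LRIG1 effect differed between the lines (interaction, edgeR adjusted p = 0.0069).

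Over all genes, 40.5% had an acute effect that differed between the lines, and 4 of the 6 members did. These 4 tests moved with single replicate numbers: without replicate 1 of every group the adjusted p was 0.0642 for EGFR, 0.0805 for ERBB2 and 0.184 for ERRFI1, without replicate 2 it was 0.182 for ERRFI1, and without replicate 3 it was 0.113 for ERBB2 and 0.0756 for LRIG1 (edgeR). ERBB4 was not called (edgeR adjusted p = 0.0662) except without replicate 2 (0.0393).

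**Figure D2:**
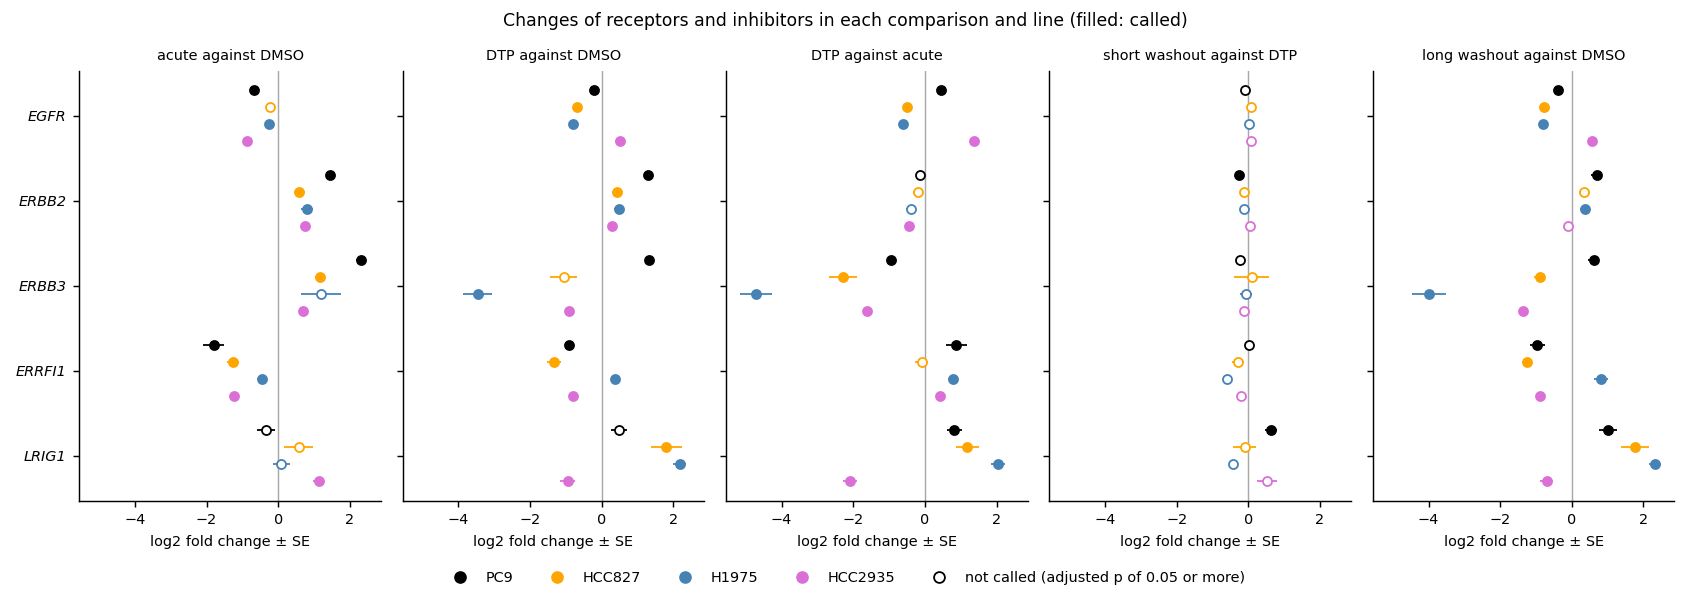
log2 fold change ± SE (edgeR, TMM-normalized counts, 3 libraries per arm) on the horizontal axis, with EGFR, ERBB2, ERBB3, ERRFI1 and LRIG1 down the vertical axis, a panel for each of 5 comparisons, the 4 lines as colours and filled points for calls at an adjusted p under 0.05. ERBB2 lies above 0 against DMSO in all 4 lines under acute osimertinib and in DTPs, ERBB3 in H1975 reaches -4.72 in DTPs against acute, and all but 2 points of short washout against DTP are open.

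Since TPM is a level per transcript length, the 4 receptors can be added, and EGFR expressed as a share of their sum. In PC9, EGFR made up 77.8%, 75.7% and 77.7% of receptor TPM in the DMSO libraries and 36.2%, 36.3% and 37.7% in the acute libraries. ERBB3 went from a mean of 9.78% to 36.3% and ERBB2 from 13.2% to 27.0%, so that EGFR and ERBB3 took nearly equal shares in PC9 under the drug. In HCC827 the EGFR share was 92.7%, 94.4% and 90.4% under DMSO and 86.8%, 83.2% and 87.3% under osimertinib, and EGFR remained the first receptor in every library of this line. In H1975 it was 39.9%, 55.9% and 45.2% under DMSO against 36.0%, 26.3% and 23.1% under the drug. In HCC2935 it was 33.1%, 32.9% and 32.0% under DMSO against 12.9%, 14.2% and 14.1% under the drug. The acute and DMSO libraries did not overlap in this share in any of the 4 lines. ERBB2 was the first receptor in every H1975 library of the 4 drug-exposed arms, and in every HCC2935 library other than those of long washout. ERBB3 exceeded EGFR in all 3 acute libraries of HCC2935.

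Averaged over the 4 lines, the EGFR share was 21.1 percentage points lower under acute osimertinib (exact two-sided permutation test within lines, p = 1.25e-05, the smallest it can give, Benjamini-Hochberg adjusted over 8 such tests p = 0.0001), and it was lower in each of the 4 lines. The summed receptor level was higher by 0.32 on the log2 TPM scale (exact permutation, adjusted p = 0.0059), but on summed CPM, which weights long transcripts more, the difference was 0.037 (exact permutation, adjusted p = 0.574), and on TPM without replicate 3 of each group it was 0.24 (exact permutation, adjusted p = 0.179).

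The later arms were compared with the same DMSO libraries. In DTPs the mean difference of the EGFR share was -8.15 points (exact permutation, adjusted p = 0.0326), made of -23.3 in PC9, -3.79 in HCC827, -13.4 in H1975 and 7.97 in HCC2935, where the share was higher than under DMSO. On CPM the mean difference was -5.63 points (exact permutation, adjusted p = 0.0807), and without replicate 1, 2 or 3 of each group it was -9.41, -6.91 and -8.14 (exact permutation, adjusted p = 0.14, 0.219 and 0.179). After short washout it was -6.48 points (adjusted p = 0.0531, exact permutation) and after long washout -3.72 points (adjusted p = 0.326, exact permutation), with -15.1 in PC9 and 16.1 in HCC2935. The summed receptor level differed from DMSO by 0.0028 log2 units in DTPs, -0.021 after short washout and -0.23 after long washout (exact permutation, adjusted p = 0.981, 0.963 and 0.0326). The DTP value was made of 0.57 in PC9, -0.58 in HCC827, -0.34 in H1975 and 0.36 in HCC2935. In DTPs against DMSO the median gene lay higher on TPM than on counts, by 0.23 log2 units in PC9 and 0.16 in HCC2935. The sums of these lines are not corrected for that shift. The long washout value of the sum was made of 0.077 in PC9, -0.65 in HCC827, -0.43 in H1975 and 0.078 in HCC2935. Both long washout means, of share and of sum, pool washouts whose length differed by line. For the sum the mean was -0.23, -0.22 and -0.25 (exact permutation, adjusted p = 0.141, 0.181 and 0.179) without replicate 1, 2 or 3.

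**Figure D3:**
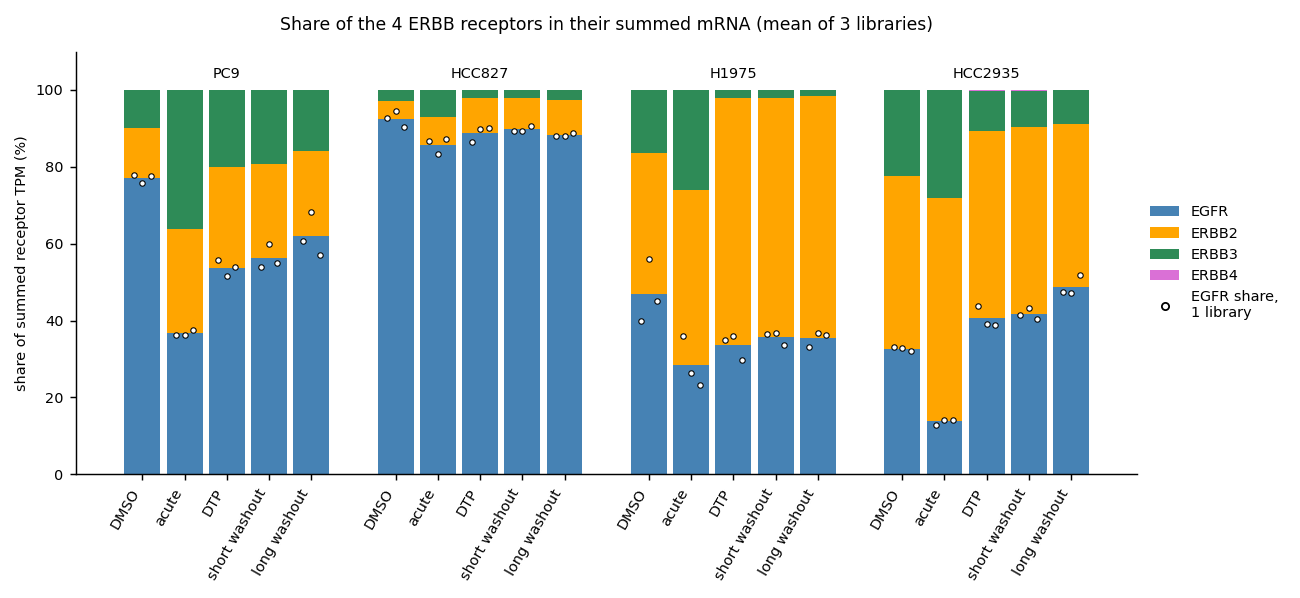
Mean share (%) of EGFR, ERBB2, ERBB3 and ERBB4 in the summed receptor TPM on the vertical axis, stacked from 0 to 100%, for the 5 arms of each line on the horizontal axis, with dots for the EGFR share in each of 3 libraries. The EGFR share in PC9 goes from a mean of 77.1% under DMSO to 36.7% in the acute arm, while in HCC827 it stays at a mean of 85.8% or more.

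DTPs were compared with DMSO to see what remained different after 21 days of drug. ERBB2 stayed higher than under DMSO in all 4 lines, while EGFR, ERBB3, ERRFI1 and LRIG1 each moved in different directions in different lines. In PC9 4 of 5 members tested were called (all genes 71.3%), in HCC827 4 of 5 (all genes 36.7%), in H1975 5 of 5 (all genes 45.7%) and in HCC2935 6 of 6 (all genes 52.5%). The HCC2935 calls include ERBB4, which its DTP libraries brought past the count filter. The effect differed between the lines for 5 of the 6 members, all but ERBB4 (edgeR adjusted p = 0.184), beside 61.6% of all genes. In PC9 the median of all genes differed between the TPM and the count scale by 0.23 log2 units in this comparison, by 0.25 in DTPs against acute and by 0.13 in long washout against DMSO, and in HCC2935 by 0.16 and 0.17 in the first and second of these. TPM values of these lines are not corrected for that shift, except where a value is given relative to it. The edgeR fold changes come from counts.

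ERBB2 held 113, 123 and 119.8 TPM in PC9 DTPs against 40.7, 39.8 and 38.8 TPM under DMSO (log2 fold change 1.31 ± 0.058, edgeR adjusted p = 7.36e-08), which is 2.47-fold. The other lines showed smaller rises, of 0.48 ± 0.14 in H1975, 0.44 ± 0.15 in HCC827 and 0.30 ± 0.091 in HCC2935 (edgeR adjusted p = 0.0229, 0.0416 and 0.02). The DTP libraries lay above the DMSO libraries in each of the 4 lines, and 4.5% of genes were higher in all 4. Among the smaller rises, the call was lost in H1975 without DTP replicate 1 or 3 or DMSO replicate 3 (edgeR adjusted p 0.062 to 0.0775), in HCC827 without DTP replicate 1, 2 or 3 or DMSO replicate 1 or 2 (edgeR adjusted p 0.055 to 0.118) and in HCC2935 without DTP replicate 1 or 3 or DMSO replicate 1 (edgeR adjusted p 0.0621 to 0.0668). The rise differed between the lines (interaction, edgeR adjusted p = 0.000162).

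EGFR moved in opposite directions. It fell in H1975, to 38.3, 35.9 and 28.3 TPM from 56.8, 61.7 and 60.9 TPM (log2 fold change -0.79 ± 0.12, edgeR adjusted p = 0.000882). In HCC827 it fell to 794, 769 and 751 TPM from 1205, 1398 and 1029 TPM (log2 fold change -0.67 ± 0.13, edgeR adjusted p = 0.00433). In HCC2935 it rose, to 193, 144 and 147 TPM from 98.9, 105 and 97.3 TPM (log2 fold change 0.51 ± 0.12, edgeR adjusted p = 0.0071). The groups did not overlap in these 3 lines, and the lines differed in this effect (interaction, edgeR adjusted p = 3.98e-06). In PC9 the direction depends on the scale: TMM-normalized counts were 1639 ± 57.9 CPM (SD, n = 3) in DTPs and 1909 ± 114 CPM under DMSO (log2 fold change -0.22 ± 0.058, edgeR adjusted p = 0.00764), whereas TPM overlapped, at 246, 233 and 248 and 229.6, 222 and 249, with a log2 difference of 0.052. Relative to the shift of the median gene, the TPM difference was -0.17.

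ERBB3 showed the widest range. In PC9 it remained above DMSO, at 82.9, 97.1 and 91.2 TPM (log2 fold change 1.34 ± 0.11, edgeR adjusted p = 2.56e-06). In H1975 it fell 11.0-fold, from 29.8, 9.13 and 26.8 to 2.18, 1.95 and 1.82 TPM (log2 fold change -3.46 ± 0.41, edgeR adjusted p = 0.000373). In HCC2935 it fell from 67.3, 69.0 and 70.3 to 41.2, 47.9 and 34.8 TPM (log2 fold change -0.91 ± 0.11, edgeR adjusted p = 0.000203). The 3 DTP libraries of HCC827 spread widely, at 31.9, 16.5 and 8.47 TPM against 36.0, 33.8 and 44.5 TPM under DMSO, and although none overlapped the DMSO group the difference was not called (log2 fold change -1.06 ± 0.37, edgeR adjusted p = 0.0506). It was called without DTP replicate 1 (edgeR adjusted p = 0.00247) and under each of the 8 other settings tried. Directions thus differed between the lines (interaction, edgeR adjusted p = 1.5e-06). ERBB4 was tested only in HCC2935, where estimated counts went from 12.1, 8.04 and 7.01 to 135, 35.8 and 90.4 (log2 fold change 3.21 ± 0.56, edgeR adjusted p = 0.00127), still at no more than 1.03 TPM. It entered that test through its DTP libraries, the higher group.

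ERRFI1 remained below DMSO in 3 lines and rose in H1975. DTPs held 86.4, 102 and 63.9 TPM in HCC827 (log2 fold change -1.32 ± 0.20, edgeR adjusted p = 0.00129). They held 52.6, 54.3 and 53.4 TPM in PC9 (log2 fold change -0.92 ± 0.071, edgeR adjusted p = 1.98e-06) and 37.2, 39.5 and 29.5 TPM in HCC2935 (log2 fold change -0.80 ± 0.12, edgeR adjusted p = 0.000614). In H1975 they held 119, 124 and 122 TPM against 94.5, 100.2 and 93.2 TPM under DMSO (log2 fold change 0.36 ± 0.091, edgeR adjusted p = 0.0108), a call lost without DMSO replicate 3 (edgeR adjusted p = 0.0592). No line's groups overlapped, and the effect differed between the lines (interaction, edgeR adjusted p = 2.93e-06). Of the 8 ERK-induced genes, 7, 3, 7 and 7 were lower in DTPs of PC9, HCC827, H1975 and HCC2935. In HCC827 DUSP4 was called higher (1.38 ± 0.20, edgeR adjusted p = 0.0011), as was SPRY2 in H1975 (0.63 ± 0.13, edgeR adjusted p = 0.00495), both in log2 units. Calls in either direction made up 87.5%, 50%, 100% and 87.5% of the list in PC9, HCC827, H1975 and HCC2935. Over all genes they made up 71.3%, 36.7%, 45.7% and 52.5%.

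LRIG1 rose in H1975 and HCC827 and fell in HCC2935. In H1975 it rose 4.53-fold, from 8.46, 13.7 and 9.24 to 44.7, 41.8 and 53.2 TPM (log2 fold change 2.18 ± 0.19, edgeR adjusted p = 0.000107). In HCC827 it rose from 0.69, 0.343 and 0.32 to 2.14, 1.05 and 1.64 TPM (log2 fold change 1.81 ± 0.44, edgeR adjusted p = 0.0117). EGFR was lower in DTPs of both lines, and by the count test also in PC9, where LRIG1 was not called. In HCC2935, where EGFR was higher, LRIG1 fell from 5.31, 5.33 and 4.41 to 2.32, 2.77 and 3.74 TPM (log2 fold change -0.95 ± 0.21, edgeR adjusted p = 0.0041). In PC9 the DTP libraries, at 1.62, 1.33 and 1.38 TPM, all lay above DMSO, at 1.03, 0.668 and 0.873 TPM, but the difference was not called (log2 fold change 0.49 ± 0.23, edgeR adjusted p = 0.0757), except without DMSO replicate 1 (edgeR adjusted p = 0.0443). The effect differed between the lines (interaction, edgeR adjusted p = 9.27e-07).

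**Figure D4:**
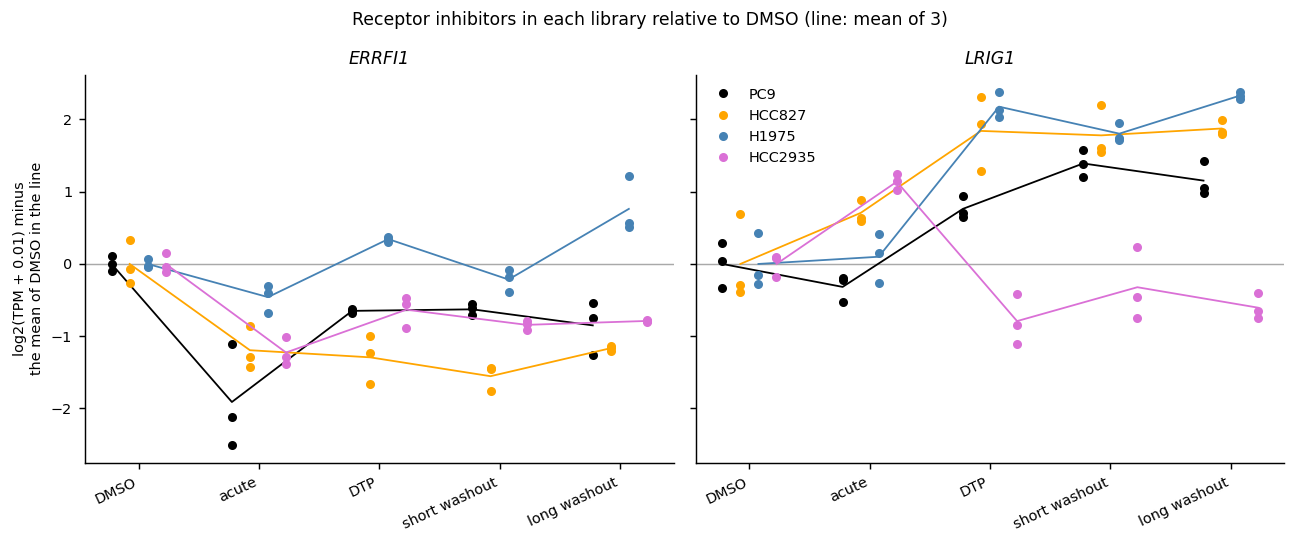
Level of ERRFI1 and LRIG1 in each library relative to the mean of the DMSO libraries of its line, as a difference of log2(TPM + 0.01) on the vertical axis, by arm on the horizontal axis and cell line by colour, with drawn lines through the means of 3. ERRFI1 lies below 0 in the acute arm in all 4 lines, and LRIG1 in the DTP arm lies above 0 in PC9, HCC827 and H1975 and below 0 in HCC2935.

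DTPs were also compared with the acute arm, that is, long with short exposure to the same drug. ERBB3 was lower in DTPs in all 4 lines, a pattern shared by 1.41% of the genes tested in every line. Calls were 5 of 6 in PC9 (all genes 39.8%), 3 of 5 in HCC827 (all genes 29.5%), 4 of 5 in H1975 (all genes 26.2%) and 6 of 6 in HCC2935 (all genes 42.4%). ERBB4 is among the calls in PC9 and HCC2935. This comparison shares the DTP libraries with the one above and the acute libraries with the first, so the 3 are not independent.

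ERBB3 fell 26.3-fold in H1975, from 19.9, 57.0 and 77.9 to 2.18, 1.95 and 1.82 TPM (log2 fold change -4.72 ± 0.45, edgeR adjusted p = 0.000548). In HCC827 it fell from 75.3, 106 and 89.1 to 31.9, 16.5 and 8.47 TPM (log2 fold change -2.28 ± 0.39, edgeR adjusted p = 0.00492). The HCC2935 libraries went from 110.5, 104 and 124 to 41.2, 47.9 and 34.8 TPM (log2 fold change -1.62 ± 0.12, edgeR adjusted p = 8.8e-06). Those of PC9 went from 155, 155 and 128 to 82.9, 97.1 and 91.2 TPM (log2 fold change -0.96 ± 0.10, edgeR adjusted p = 0.00015). The groups did not overlap in any line, so ERBB3 stood lower after 21 days than after 24 h of drug in all 4. ERBB2, by contrast, fell from acute to DTP in HCC2935 alone among the calls (log2 fold change -0.45 ± 0.10, edgeR adjusted p = 0.00393), with log2 fold changes of -0.13 in PC9, -0.19 in HCC827 and -0.39 in H1975 that were not called (edgeR adjusted p = 0.0794, 0.369 and 0.0817). The H1975 value was called without acute replicate 1 (edgeR adjusted p = 0.015), and in PC9 the sign turned on TPM, at 0.13, or -0.12 relative to the median gene.

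EGFR was higher in DTPs than in the acute arm of HCC2935 (log2 fold change 1.38 ± 0.13, edgeR adjusted p = 3.41e-05) and PC9 (log2 fold change 0.45 ± 0.055, edgeR adjusted p = 0.000369). It was lower in H1975 (log2 fold change -0.60 ± 0.12, edgeR adjusted p = 0.00865) and HCC827 (log2 fold change -0.50 ± 0.091, edgeR adjusted p = 0.006). ERRFI1 rose in PC9 to 52.6, 54.3 and 53.4 from 14.8, 19.3 and 38.9 TPM (log2 fold change 0.88 ± 0.29, edgeR adjusted p = 0.0388). In H1975 it rose to 119, 124 and 122 from 77.9, 72.5 and 60.1 TPM (log2 fold change 0.78 ± 0.13, edgeR adjusted p = 0.00373), and in HCC2935 to 37.2, 39.5 and 29.5 from 20.9, 22.3 and 27.0 TPM (log2 fold change 0.43 ± 0.13, edgeR adjusted p = 0.0236). The PC9 call was lost without DTP replicate 1, 2 or 3 or acute replicate 1 or 2 (edgeR adjusted p 0.0716 to 0.105), and the HCC2935 call without DTP replicate 1 or 2 or acute replicate 1 or 2 (edgeR adjusted p 0.0662 to 0.0833). In HCC827 ERRFI1 overlapped (log2 fold change -0.10 ± 0.18, edgeR adjusted p = 0.726), and its sign turned without DTP replicate 3 or acute replicate 3.

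LRIG1 rose from acute to DTP in H1975 (log2 fold change 2.04 ± 0.19, edgeR adjusted p = 0.000494), HCC827 (log2 fold change 1.18 ± 0.32, edgeR adjusted p = 0.0279) and PC9 (log2 fold change 0.82 ± 0.21, edgeR adjusted p = 0.0133). In HCC2935 it fell from 11.1, 11.8 and 10.2 to 2.32, 2.77 and 3.74 TPM (log2 fold change -2.09 ± 0.19, edgeR adjusted p = 2.55e-05). The HCC827 call was lost without DTP replicate 1 or 3 or acute replicate 1, 2 or 3 (edgeR adjusted p 0.056 to 0.0925) and the PC9 call without DTP replicate 1 (edgeR adjusted p = 0.0547). ERBB4 fell in PC9, from estimated counts of 65.5, 17.1 and 21.6 to 8.69, 5.21 and 12.3 (edgeR adjusted p = 0.0299), a call lost without DTP replicate 1, 2 or 3 or acute replicate 1 (edgeR adjusted p 0.0664 to 0.114). In HCC2935 it rose, from 24.4, 7.29 and 26.0 to 135, 35.8 and 90.4 (edgeR adjusted p = 0.0138), a call lost without DTP replicate 1 (edgeR adjusted p = 0.0567). In both lines ERBB4 passed the count filter through the arm where it was higher.

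ERBB3 was called lower than under DMSO, together with CDH1 and EPCAM, in DTPs of H1975. In HCC827 DTPs CDH1 and EPCAM were called lower, and the ERBB3 difference had the same direction but was not called (edgeR adjusted p = 0.0506). In HCC2935 ERBB3 and EPCAM were called lower and CDH1 was not. ERBB3 did not move with the epithelial markers in every arm and line. In DTPs against DMSO, the log2 fold change of CDH1, the adhesion protein E-cadherin, was 1.08 ± 0.065 in PC9, -1.81 ± 0.34 in HCC827 and -5.14 ± 0.41 in H1975, each called (edgeR adjusted p = 3.85e-07, 0.00387 and 8.19e-05), and -0.091 ± 0.089 in HCC2935, not called (0.424). EPCAM changed by -1.18 ± 0.07, -1.84 ± 0.25, -3.27 ± 0.30 and -0.59 ± 0.088 in the same order, all called lower, also in PC9, where ERBB3 and CDH1 were higher. Of the 6 epithelial markers, PC9 DTPs had 2 higher and 3 lower, HCC827 0 higher and 5 lower, H1975 0 higher and 3 lower and HCC2935 0 higher and 4 lower. These are 83.3%, 83.3%, 50% and 66.7% of the markers in the same order, beside 71.3%, 36.7%, 45.7% and 52.5% of all genes. Their summed level in H1975 lay between 3615 and 4621 TPM under DMSO and between 2369.9 and 3107 TPM in DTPs, and in HCC827 between 8229 and 10635 and between 3346 and 5892 TPM. In HCC2935 it lay between 12261 and 13521 TPM under DMSO and between 10466 and 11554 TPM in DTPs, and in PC9 between 8596 and 8948 and between 9749 and 10180 TPM. Their part in the result was not tested.

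Under acute osimertinib the markers moved mostly with ERBB3 in PC9 and against it in HCC2935. In HCC2935, where ERBB3 rose, 0 higher and 3 lower of the 6 were called, and their sum went from between 12261 and 13521 TPM to between 6560.1 and 7623 TPM. In HCC827 1 higher and 2 lower were called, with sums between 8229 and 10635 TPM under DMSO and between 7136 and 8630 TPM under the drug. PC9 had 5 higher and 1 lower: CDH1 rose with ERBB3, by 1.20 ± 0.069 log2 units, while EPCAM changed by -0.91 ± 0.064 (edgeR adjusted p = 1.19e-06 and 3.21e-06). In H1975 3 higher and 0 lower were called. The called share of the markers was 100% in PC9 and 50% in each other line. Over all genes it was 68.5% in PC9, 42.3% in HCC827, 44.9% in H1975 and 47.1% in HCC2935.

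Across the 20 group means, on log2(CPM + 1) centred within each line, ERBB3 and CDH1 ran together (r was 0.88 and rho 0.84), as did ERBB3 and EPCAM (r was 0.79 and rho 0.80). For KRT7 r was 0.77 and rho 0.70, for KRT19 r was 0.68 and rho 0.66, for KRT8 r was 0.40 and rho 0.38 and for KRT18 r was 0.14 and rho 0.29. These points share libraries and line, and the correlations are descriptions. The DTP libraries of HCC827 show the same within 1 group, with CDH1 at 166, 68.8 and 54.9 TPM and EPCAM at 203, 108 and 91.7 TPM in replicates 1, 2 and 3, where ERBB3 was 31.9, 16.5 and 8.47 TPM.

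**Figure D5:**
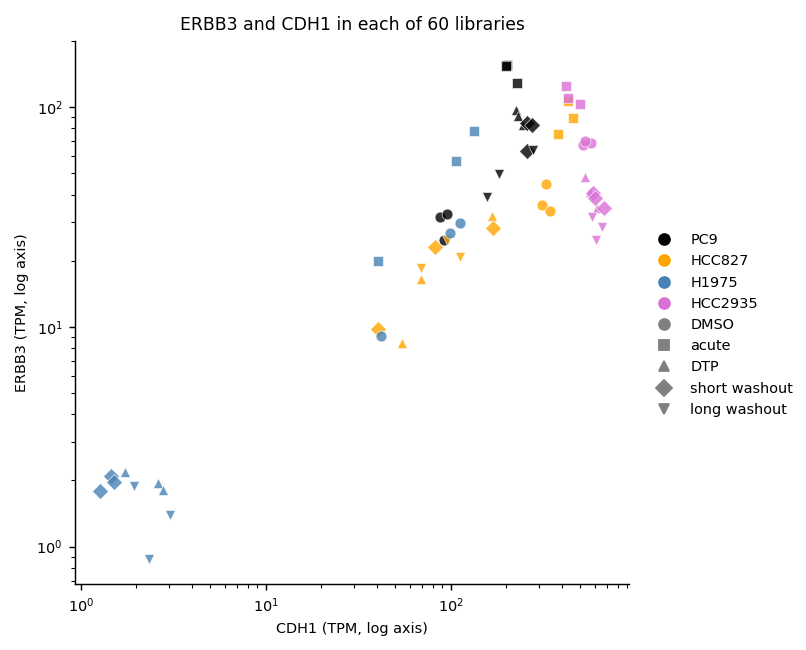
ERBB3 against CDH1 in all 60 libraries, both in TPM on log axes, with line by colour and arm by marker. The DTP, short washout and long washout libraries of H1975 lie at the lower left, with ERBB3 between 0.878 and 2.18 TPM, and the acute libraries of PC9 and HCC2935 at the upper right.

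Short washout was compared with DTPs to see what 24 h without drug changed. Few members moved. In PC9 2 of 6 members were called (all genes 22.2%), and in the other lines none: 0 of 6 in HCC827 (all genes 0%), 0 of 5 in H1975 (all genes 0%) and 0 of 6 in HCC2935 (all genes 3.52%). At an unadjusted p under 0.05 edgeR gave 0 members in HCC827, 2 in H1975 and 0 in HCC2935, and DESeq2 called 0, 1 and 0. Over all genes, where edgeR called 0 in HCC827 and in H1975, 197 and 1950 had an unadjusted p under 0.05, and DESeq2 called 1 and 400.

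In PC9, ERBB2 fell from 113, 123 and 119.8 to 104, 87.5 and 102 TPM (log2 fold change -0.28 ± 0.061, edgeR adjusted p = 0.0138), still above the 38.8 to 40.7 TPM of DMSO. LRIG1 rose from 1.62, 1.33 and 1.38 to 2.54, 1.96 and 2.22 TPM (log2 fold change 0.64 ± 0.16, edgeR adjusted p = 0.0236). The groups did not overlap for either gene, and the LRIG1 call was lost without short washout replicate 1 or 3 or DTP replicate 2 or 3 (edgeR adjusted p 0.0521 to 0.0775). ERRFI1 in PC9 held 52.6, 54.3 and 53.4 TPM before and 51.2, 56.8 and 54.8 TPM after the washout (log2 fold change 0.027 ± 0.065, edgeR adjusted p = 0.804), while 5 of the 8 ERK-induced genes were higher. Those 5 are 62.5% of that list, beside 22.2% of all genes called.

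In H1975, ERRFI1 was 119, 124 and 122 TPM in the DTP libraries and 73.4, 84.6 and 90.8 TPM in those labelled short washout, and LRIG1 was 44.7, 41.8 and 53.2 and 33.6, 34.3 and 39.6 TPM. Neither pair of groups overlapped, and neither gene was called (log2 fold change -0.59 ± 0.11, edgeR adjusted p = 0.193 for ERRFI1, and log2 fold change -0.42 ± 0.13, edgeR adjusted p = 0.273 for LRIG1). Same-numbered libraries deviated together in this comparison, and with the replicate number as a block both were called lower (edgeR, log2 fold change -0.60, adjusted p = 0.00106 for ERRFI1, and log2 fold change -0.41, adjusted p = 0.0033 for LRIG1). In PC9, EGFR and ERBB3 had an unadjusted p under 0.05 without passing the adjusted test (log2 fold change -0.11 ± 0.045, edgeR adjusted p = 0.117 for EGFR, and log2 fold change -0.23 ± 0.10, edgeR adjusted p = 0.121 for ERBB3). Of the remaining values, several turned their sign when 1 library was left out, such as EGFR in HCC2935 (log2 fold change 0.082 ± 0.12, edgeR adjusted p = 0.743) and ERBB3 in HCC827 (log2 fold change 0.093 ± 0.49, edgeR adjusted p = 1.000). No member differed between the lines in this effect (0 of 6 by edgeR and 0 by DESeq2, 2 at an unadjusted p under 0.05) beside 0.0248% of all genes called.

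Long washout was compared with DMSO to see how far regrowing cells had returned. Most members were still different: 5 of 5 were called in PC9 (all genes 30.6%), 4 of 5 in HCC827 (all genes 39.7%), 5 of 5 in H1975 (all genes 55%) and 5 of 6 in HCC2935 (all genes 39.9%). ERBB2 was called in 2 of the 4 lines, and ERBB4 in HCC2935, the 1 line where it was tested. Since the washout lasted from 3 to 10 days depending on the line, no test between lines was made.

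ERBB2 stood at 69.4, 54.0 and 93.3 TPM in PC9 (log2 fold change 0.69 ± 0.15, edgeR adjusted p = 0.0135), below the 113 to 123 TPM of its DTPs, and the highest of these libraries, replicate 3, is the one with the least MKI67. The PC9 call was lost without DMSO replicate 1 or 3 (edgeR adjusted p 0.0515 to 0.0642). In H1975 ERBB2 was called higher (log2 fold change 0.36 ± 0.13, edgeR adjusted p = 0.0464), a call lost without long washout replicate 1, 2 or 3 or DMSO replicate 2 or 3 (edgeR adjusted p 0.0534 to 0.135). HCC827 (log2 fold change 0.34 ± 0.13, edgeR adjusted p = 0.07) and HCC2935 (log2 fold change -0.092 ± 0.10, edgeR adjusted p = 0.484) were not called, and HCC827 was called only without DMSO replicate 3 (edgeR adjusted p = 0.0286). EGFR fell in H1975 (log2 fold change -0.81 ± 0.068, edgeR adjusted p = 4.79e-05). It also fell in HCC827, with 738, 724 and 728 TPM (log2 fold change -0.78 ± 0.10, edgeR adjusted p = 0.000424), and in PC9, with 184, 201 and 208 TPM (log2 fold change -0.39 ± 0.095, edgeR adjusted p = 0.0193), where the call was lost without long washout replicate 1 or DMSO replicate 1 or 3 (edgeR adjusted p 0.0587 to 0.0887). It rose in HCC2935, with 165, 150 and 159 TPM (log2 fold change 0.56 ± 0.10, edgeR adjusted p = 0.00153), as it had in DTPs of that line.

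ERBB3 remained 15.8-fold lower in H1975, at 0.878, 1.88 and 1.39 TPM (log2 fold change -3.99 ± 0.48, edgeR adjusted p = 0.000277). It was also lower in HCC2935, at 31.7, 28.5 and 24.9 TPM (log2 fold change -1.37 ± 0.10, edgeR adjusted p = 1.23e-05), and HCC827, at 24.8, 18.6 and 20.8 TPM (log2 fold change -0.89 ± 0.16, edgeR adjusted p = 0.00199). In PC9 it was higher, at 49.7, 38.9 and 63.8 TPM (log2 fold change 0.61 ± 0.16, edgeR adjusted p = 0.0267), a call lost without long washout replicate 1 or DMSO replicate 1, 2 or 3 (edgeR adjusted p 0.064 to 0.0935). ERBB4 in HCC2935 had estimated counts of 40.1, 29.2 and 10.9 (log2 fold change 1.48 ± 0.52, edgeR adjusted p = 0.047), a call lost without long washout replicate 1 or 2 or DMSO replicate 1, 2 or 3 (edgeR adjusted p 0.0892 to 0.177). Its long washout libraries, the higher group, brought it past the count filter. In PC9, where ERBB4 was not tested, 1 long washout library held 188 estimated counts of ERBB4 and the others 3.59 and 4.37.

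ERRFI1 was lower after long washout in HCC827, at 87.7, 92.4 and 90.2 TPM (log2 fold change -1.24 ± 0.14, edgeR adjusted p = 0.000191). It was also lower in HCC2935, at 31.2, 31.5 and 31.9 TPM (log2 fold change -0.88 ± 0.10, edgeR adjusted p = 0.000138), and in PC9, at 50.1, 57.5 and 34.9 TPM (log2 fold change -0.96 ± 0.20, edgeR adjusted p = 0.0126), where the call was lost without DMSO replicate 3 (edgeR adjusted p = 0.06). In H1975 it was higher, at 137, 142 and 222 TPM (log2 fold change 0.82 ± 0.19, edgeR adjusted p = 0.00643), the same direction as in its DTPs. LRIG1 was higher in H1975, at 50.1, 51.2 and 53.1 TPM (log2 fold change 2.32 ± 0.16, edgeR adjusted p = 2.59e-05). It was also higher in HCC827, at 1.50, 1.52 and 1.72 TPM (log2 fold change 1.77 ± 0.39, edgeR adjusted p = 0.0061), and in PC9, at 2.29, 1.76 and 1.67 TPM (log2 fold change 1.01 ± 0.25, edgeR adjusted p = 0.0205), where the call was lost without long washout replicate 1 or DMSO replicate 2 or 3 (edgeR adjusted p 0.0703 to 0.0743). In HCC2935 it was lower, at 2.96, 3.76 and 3.18 TPM (log2 fold change -0.70 ± 0.18, edgeR adjusted p = 0.0128), a call lost without DMSO replicate 1 (edgeR adjusted p = 0.0537).

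Around the receptors, a list of 26 genes covered the adaptors that carry their signal and the ligases, phosphatases and trafficking proteins that end it. Under acute osimertinib 10 higher and 12 lower in PC9, 6 and 3 in HCC827, 5 and 8 in H1975, and 4 and 7 in HCC2935 were called, out of 26, 26, 26 and 25 tested. These are 84.6%, 34.6%, 50% and 44% of the list in the same order, beside 68.5%, 42.3%, 44.9% and 47.1% of all genes. CBLB, a ubiquitin ligase that marks active receptors for degradation, rose in all 4 lines, with log2 fold changes of 2.21 ± 0.16 in PC9, 1.30 ± 0.24 in HCC827, 1.55 ± 0.19 in H1975 and 0.75 ± 0.19 in HCC2935. SH3KBP1, an adaptor that links CBL proteins to endocytosis, fell in all 4, with log2 fold changes of -1.52 ± 0.11 in PC9, -0.77 ± 0.11 in HCC827, -0.47 ± 0.12 in H1975 and -1.09 ± 0.12 in HCC2935. In DTPs against DMSO the calls were 7 higher and 10 lower in PC9, 9 and 3 in HCC827, 9 and 4 in H1975, and 6 and 3 in HCC2935. These are 65.4%, 46.2%, 50% and 36% of the list in the same order, beside 71.3%, 36.7%, 45.7% and 52.5% of all genes. RNF41, a ubiquitin ligase of ERBB3, rose in all 4 lines, by 0.44 ± 0.078 in PC9, 0.76 ± 0.13 in HCC827, 0.35 ± 0.12 in H1975 and 0.48 ± 0.12 in HCC2935, and GAB2, a docking protein for PI3K and SHP2, rose in 3, by 3.03 ± 0.11 in PC9, 1.10 ± 0.20 in HCC827 and 1.56 ± 0.24 in H1975, with 0.38 ± 0.17 in HCC2935, not called (edgeR adjusted p = 0.0915).

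In DTPs against acute the calls were 3 higher and 3 lower in PC9, 5 and 3 in HCC827, 4 and 4 in H1975, and 9 and 1 in HCC2935. These are 23.1%, 30.8%, 30.8% and 40% of the list in the same order, beside 39.8%, 29.5%, 26.2% and 42.4% of all genes. CRK, a signalling adaptor, and PTPN1, a phosphatase that acts on EGFR, rose in 3 lines each (CRK by 0.39 ± 0.083 in HCC827, 0.50 ± 0.10 in H1975 and 0.43 ± 0.10 in HCC2935 on the log2 scale, PTPN1 by 0.42 ± 0.083 in PC9, 0.90 ± 0.15 in HCC827 and 0.33 ± 0.11 in HCC2935). After short washout 4 were higher and 3 lower in PC9, 26.9% of the list beside 22.2% of all genes, and edgeR called 0 in each other line, where 0, 2 and 4 had an unadjusted p under 0.05 in HCC827, H1975 and HCC2935 and DESeq2 called 0, 1 and 0. In PC9 SH3KBP1 rose (log2 fold change 0.88 ± 0.12) and SOS2, an exchange factor for RAS, fell (-0.43 ± 0.085). Of the other calls, GAB1 fell (-0.37 ± 0.079), as did SOS1 (-0.22 ± 0.063), and PTPN1, PTPN11 and STAM rose (0.34 ± 0.08, 0.32 ± 0.093 and 0.27 ± 0.085). After long washout against DMSO the calls were 5 higher and 7 lower in PC9, 8 and 3 in HCC827, 9 and 7 in H1975, and 5 and 3 in HCC2935. These are 46.2%, 42.3%, 61.5% and 32% of the list in the same order, beside 30.6%, 39.7%, 55% and 39.9% of all genes. GAB2 was higher in 3 lines, by 2.54 ± 0.27 in PC9, 1.10 ± 0.18 in HCC827 and 1.48 ± 0.21 in H1975, and SH3KBP1 was lower in 3, with -1.09 ± 0.13 in PC9, -0.96 ± 0.22 in HCC827 and -0.95 ± 0.066 in H1975, and higher in HCC2935, with 0.46 ± 0.14 (edgeR adjusted p = 0.0234).

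The median log2 fold change of the 26 genes under acute osimertinib was -0.0042 in PC9, 0.00089 in HCC827, -0.056 in H1975 and -0.0014 in HCC2935, beside medians over all genes of 0.026, 0.0086, 0.031 and 0.0081. In DTPs against DMSO the medians of the list were -0.094, 0.14, 0.15 and 0.19 in the same order, beside 0.018, 0.016, 0.011 and -0.0013 over all genes.

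Out of 13805 genes that averaged 1 CPM or more, those whose group means ran most like each member over the 20 groups, after centring within lines, were found by Pearson's r, with Spearman's rho beside it. For EGFR they were LIPG (r = 0.97, rho = 0.95), ITPRID2 (r = 0.92, rho = 0.90) and CDC73 (r = 0.91, rho = 0.90). For ERBB2 they were CALCOCO1 (r = 0.97, rho = 0.93), TTLL3 (r = 0.97, rho = 0.94) and TTC21A (r = 0.96, rho = 0.91), and for ERBB3 RBBP8NL (r = 0.98, rho = 0.98), BICDL2 (r = 0.96, rho = 0.97) and EVPL (r = 0.96, rho = 0.95), of which EVPL encodes envoplakin, a protein of epithelial cell junctions. ERBB4, at its low counts, gave PIP5K1B (r = 0.84, rho = 0.76), ARFGEF2 (r = 0.82, rho = 0.77) and ADGRD1 (r = 0.82, rho = 0.63). For ERRFI1 they were CD274 (r = 0.86, rho = 0.76), ZNF121 (r = 0.86, rho = 0.72) and PIAS2 (r = 0.85, rho = 0.77), and for LRIG1 RASD1 (r = 0.89, rho = 0.87), ALPL (r = 0.88, rho = 0.85) and ATF7IP2 (r = 0.88, rho = 0.84). Between members, the same measure gave the strongest negative relation for EGFR and LRIG1, where r was -0.81 and rho -0.74, and for ERBB2 and ERRFI1 r was -0.65 and rho -0.52. The points share lines and arms, and these values are descriptions.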

How the data were processed

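RNA-Seq libraries (Illumina mRNA TruSeq, HiSeq4000, paired ends) of 60 cultures were used, grouped by the labels, which also give doses, times and replicate numbers. For 19712 gene symbols the authors deposited estimated counts, fractional and without normalization between libraries. A second deposited table holds log2 TPM, to which 0.01 had been added before the log. The submitters' processing notes name HISAT2 2.1.0, Salmon 0.8.2 and hg38 without saying which step each served, and the annotation is not given in the sources used here.

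Estimated counts were rounded and fitted with edgeR 4.0.16 in R 4.3.3 (TMM, filterByExpr at its defaults, quasi-likelihood F-test). Each comparison used the 6 libraries of its arms in 1 line. The interaction of line and arm was tested on 24 libraries, and pairs of lines on the 12 DMSO libraries. A call is a Benjamini-Hochberg adjusted p under 0.05, over all genes of a fit. The edgeR scripts were tested on simulated data. Deposited log2 TPM values were turned back to TPM for levels, shares and sums, which were compared by exact permutation of arms within lines, adjusted over 8 tests. CPM values are TMM-normalized. TPM totals were 0.806 to 0.891 M per library.

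All 6 genes were named in every comparison. For the list of 26 pathway genes, each comparison names the 2 called in the most lines in 1 direction, ranked among equals by their largest called change, and in short washout the other calls too, chosen after their values were seen. DUSP4 and SPRY2 were also named after their values were seen. For each member, the 3 genes with the highest Pearson r over group means were named. The genes and lists were chosen with earlier results of these data known.

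Alternatives were DESeq2 1.42.0, limma 3.58.1 on log2 TPM (pseudocount 0.01 or 1), RLE size factors, a minimum of 10 counts in every library or none, all libraries of a line or of the series in 1 fit, CPM in place of TPM, a replicate block, and each library left out in turn. The 60 pairs of replicates of a group differed by 5.76 to 45.3 times counting noise, so none was treated as a repeat. Pairing comes from replicate numbers in the labels. The deviations of same-numbered libraries from their group means correlated by over 0.1 in every pair in 3 of 20 sets of 2 arms: short washout and DTP in HCC827 (r = 0.40 to 0.69) and H1975 (r = 0.25 to 0.60), and acute and DMSO in HCC2935 (r = 0.13 to 0.36). Over all sets r ran from -0.65 to 0.69. Gene positions are from GENCODE 29. Permutation tests were run in Python 3.11.15 with numpy 2.4.6 and pandas 2.3.3, Spearman correlations with scipy 1.17.1 and plots with matplotlib 3.10.9.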

Additional observations from a re-analysis of the deposited data

Results flagged for a closer look

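The effect of an arm differed between the 4 lines for 9 of the results above, by the interaction of line and arm over 24 libraries. Among all genes tested, it differed for 40.5% in acute against DMSO and for 61.6% in DTPs against DMSO. Under acute osimertinib against DMSO, the log2 fold change of EGFR ranged from -0.87 in HCC2935 to -0.22 in HCC827 (edgeR adjusted p = 0.000788), that of ERBB2 from 0.59 in HCC827 to 1.45 in PC9 (edgeR adjusted p = 0.00688), that of ERRFI1 from -1.79 in PC9 to -0.46 in H1975 (edgeR adjusted p = 0.0127) and that of LRIG1 from -0.33 in PC9 to 1.13 in HCC2935 (edgeR adjusted p = 0.0069). ERBB2 and ERRFI1 kept 1 direction in the 4 lines here and differed in size, while each LRIG1 value other than that of HCC2935 was not called. Each of the 4 acute interaction calls was lost with at least 1 of the replicate numbers left out of every group.

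In DTPs against DMSO, EGFR ranged from -0.79 in H1975 to 0.51 in HCC2935 (edgeR adjusted p = 3.98e-06) and ERBB3 from -3.46 in H1975 to 1.34 in PC9 (edgeR adjusted p = 1.5e-06). ERBB2, higher in all 4 lines, ranged from 0.30 in HCC2935 to 1.31 in PC9 (edgeR adjusted p = 0.000162). Among the inhibitors, ERRFI1 ranged from -1.32 in HCC827 to 0.36 in H1975 (edgeR adjusted p = 2.93e-06) and LRIG1 from -0.95 in HCC2935 to 2.18 in H1975 (edgeR adjusted p = 9.27e-07). The LRIG1 extremes were H1975, the line with the most LRIG1 under DMSO, and HCC2935, which followed it. The ERBB4 effect was not called as different, in either comparison, at estimated counts of no more than 135 per library in the arms compared.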

How the results depend on the processing

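With libraries left out, 707 of 821 single-gene values kept direction and side of the threshold, 82 lost a call, 10 gained one and 22 turned their sign. Under the other settings these numbers were 1058 of 1111, 24, 23 and 6. Fits with a library left out also hold fewer libraries, and the cause of these changes was not tested. For short washout against DTP, where 2 members were called, limma on log2 TPM called 1, the fit of all 15 libraries of a line 0 and the replicate block 4, and 1 to 2 were called with a library left out. The acute effect differed between lines for 1 to 4 members with a replicate number left out. With the replicate block, 15 calls were made in acute against DMSO, 19 in DTP against DMSO, 18 in DTP against acute and 17 in long washout against DMSO, and other calls of paired sets did not change beside those of H1975 given above.

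The EGFR share in DTPs was -5.63 points on CPM, -8.15 with the replicate block (exact permutation, adjusted p = 0.108) and -9.41 to -6.91 with a replicate number left out. The summed receptor level differed under acute osimertinib by 0.037 log2 units on CPM and 0.24 to 0.40 with a replicate number left out, in DTPs by -0.19 on CPM and -0.028 to 0.018 with one left out, and after long washout by -0.23 with the replicate block (exact permutation, adjusted p = 0.108) and -0.25 to -0.22 with a replicate number left out.

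Signs turned, in log2 units, on limma with TPM for EGFR in PC9 DTPs against DMSO (0.052 with either pseudocount), ERBB2 in PC9 DTPs against acute (0.13 with either), and PC9 minus H1975 under DMSO for ERBB2 (-0.24) and ERRFI1 (-0.20). That difference also turned with a replicate number left out for ERBB2 (-0.11 to 0.14) and ERBB4 (-2.64 to 3.83). With 1 library left out, LRIG1 in H1975 acute against DMSO ran from -0.10 to 0.29, and ERRFI1 in HCC827 DTPs against acute from -0.26 to 0.061. In short washout against DTP, with 1 library left out, EGFR ran from -0.079 to 0.094 in H1975 and -0.00099 to 0.24 in HCC2935, and ERBB2 from -0.010 to 0.11 in HCC2935. ERBB3 ran from -0.25 to 0.65 in HCC827, -0.091 to 0.0063 in H1975 and -0.23 to 0.0035 in HCC2935. ERBB4 ran from -0.13 to 0.42 in PC9 and -0.37 to 0.64 in HCC827, ERRFI1 from -0.027 to 0.075 in PC9 and LRIG1 from -0.33 to 0.11 in HCC827. In H1975, the line with the most reads, ERBB4 held too few counts to be tested in any comparison, so a change there was not detectable at this depth.

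Chosen after seeing the data, leaving out H1975 DMSO replicate 2 and acute replicate 1 gave 16 calls in acute against DMSO, and leaving out H1975 gave 2 in short washout and 14 in long washout.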
